A study of Mus musculus with 6 samples.

Results

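The 10 genes described here encode matrix metalloproteinases (MMPs) and tissue inhibitors of metalloproteinases (TIMPs), and were measured by mRNA sequencing in mouse liver sinusoidal endothelial cells (LSECs). The genes are Mmp2, Mmp8, Mmp9, Mmp12, Mmp13, Mmp14, Mmp19, Timp1, Timp2 and Timp3. They were taken by symbol from a table of 34745 genes, and all 10 were found once. The libraries came from 2 genotypes, Tgfbr2f/f (f/f below), in which the TGF-beta type II receptor gene carries floxed alleles, and Tgfbr2 ECKO, an endothelial knockout of that gene. Both groups received carbon tetrachloride (CCl4), a liver toxin that produces fibrosis, by intraperitoneal injection 2 times per week for 6 weeks. There were 3 libraries per genotype, titled WT (the f/f group) and ECKO, and no library of untreated mice was analysed here. The Cre line, the age and sex of the mice, how the LSECs were isolated and whether each library came from 1 mouse are not stated, so the p-values measure only the spread between these libraries.

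MMPs are zinc-dependent endopeptidases that are made with an inhibitory propeptide and that cut collagens, laminins, elastin and other matrix proteins. TIMPs bind the active site of MMPs and block it, and TIMP-2 also forms a complex with the membrane protease MMP-14 that activates pro-MMP-2. In liver fibrosis, stellate cells and fibroblasts are known sources of MMP-2 and TIMP-1, macrophages of MMP-12 and MMP-13, and neutrophils of MMP-8 and MMP-9.

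Library totals were 17632271 to 25062755 counts in f/f and 17171850 to 18671217 in the libraries labelled ECKO, and transcripts of the mitochondrial genome took 11.5% to 23.5% and 19.7% to 32.4% of them. Tgfbr2, the targeted gene, was at 387, 442 and 452 CPM (counts scaled by TMM-corrected library size) in f/f and at 498, 487 and 511 CPM in ECKO, higher in every ECKO library. Its log2 fold change of 0.22 did not pass (edgeR quasi-likelihood adjusted p = 0.228), and its raw counts were 9255, 9000 and 10914 in f/f and 7475, 8386 and 8917 in ECKO. On FPKM (counts per transcript length and depth) the groups overlapped, at 77.2, 107 and 110 in f/f and 86.6, 102 and 99.8 in ECKO. These values do not show the loss that the label names. The deleted exons are not named in the labels, and transcripts lacking only those exons would still give counts. Directions below are therefore those of the libraries labelled ECKO. All 12 sinusoidal endothelial markers listed were detected, with a summed level of 23012 to 26885 CPM in f/f and 24309 to 29501 CPM in ECKO. Of the 12, Pecam1 was called higher (log2 fold change 0.51, edgeR adjusted p = 0.0456) and none lower; 3 were higher and 0 lower at an unadjusted p under 0.05.

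Promoters of 7 of the 10 genes were matched in a RefSeq table (build GRCm38.p6) that holds 250 bases before and 50 after each start; Mmp2, Mmp9 and Mmp19 had no entry. Mmp13, Mmp12 and Mmp8 lie on chromosome 9, in that order of position, at 7272514-7283333, 7344381-7369499 and 7558429-7568486 on mm10/GRCm38, all on the plus strand. The promoters of Mmp13 and of the second Mmp12 start are printed because they held the AP-1 motif among those matched, and that of Timp3 because Timp3 had the highest level of the 10 genes. Capitals mark TGANTCA, the AP-1 motif, and TATAAA, the TATA motif. Both strands were searched; TGANTCA reads the same on either, and no match to one motif overlapped a match to the other.
Mmp13 (chr9:7272264-7272563, plus strand): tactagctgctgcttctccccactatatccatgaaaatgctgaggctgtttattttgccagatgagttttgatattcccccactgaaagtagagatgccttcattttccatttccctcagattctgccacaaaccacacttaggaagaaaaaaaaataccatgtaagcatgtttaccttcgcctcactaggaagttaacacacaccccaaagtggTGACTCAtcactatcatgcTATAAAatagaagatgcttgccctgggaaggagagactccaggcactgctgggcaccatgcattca
Mmp12, second start (chr9:7347124-7347423, plus strand): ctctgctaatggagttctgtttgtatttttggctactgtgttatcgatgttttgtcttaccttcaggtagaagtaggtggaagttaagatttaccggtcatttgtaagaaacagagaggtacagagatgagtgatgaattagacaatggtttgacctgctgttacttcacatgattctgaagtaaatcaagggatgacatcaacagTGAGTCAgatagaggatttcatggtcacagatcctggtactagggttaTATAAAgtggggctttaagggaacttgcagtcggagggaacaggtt
Timp3 (chr10:86300162-86300461, plus strand): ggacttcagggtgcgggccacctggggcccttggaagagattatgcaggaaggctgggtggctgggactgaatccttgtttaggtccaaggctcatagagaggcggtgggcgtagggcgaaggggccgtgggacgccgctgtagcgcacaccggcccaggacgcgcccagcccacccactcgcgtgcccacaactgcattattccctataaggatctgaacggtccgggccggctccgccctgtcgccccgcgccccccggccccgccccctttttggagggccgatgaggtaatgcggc
The AP-1 motif began 35 bases before the start of Mmp13 and 44 bases before the second start of Mmp12. It was in 2 of the 8 promoters of these 7 genes, against 7.81% of 32851 promoters of that length. TATAAA was in 3 of the 8, those 2 and Mmp8 (on the opposite strand), against 13.6% of all. It began 16 bases before the start of Mmp13 and 4 bases after the second start of Mmp12. In Mmp8 the match lay across the start, from 3 bases before it. Base composition differed among the 8 promoters. The 4 promoters of Mmp8, Mmp12 and Mmp13 held 38.7% to 46.0% G and C, Mmp14 and Timp1 held 56.0% and 55.0%, and Timp2 and Timp3 held 68.7% and 67.0%. The median over all promoters was 52.7%.

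Levels of the 10 genes were compared per gene length in FPKM, a fragment count divided by transcript length and sequencing depth. These values also follow the share of each library taken by other genes. Timp3, whose product binds the extracellular matrix, was highest, at 189.8 ± 12.8 FPKM in f/f and 201 ± 9.60 in ECKO (mean ± SD, n = 3 each, as for all such values below). In f/f it stood above 99.3% of the 20082 genes with at least 1 count. Mmp14, the membrane-type protease MT1-MMP, followed at 74.0 ± 9.85 FPKM in f/f and 48.7 ± 5.20 in ECKO. Neither overlapped its neighbour in that order, in either group.

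The order below them differed between the groups. In f/f it was Timp2 (22.9 ± 10.2 FPKM), Mmp2 (18.6 ± 9.71), Timp1 (5.61 ± 3.77), Mmp19 (1.73 ± 0.372) and Mmp12 (0.301 ± 0.239). Timp2 and Mmp2 overlapped, as did Mmp2 and Timp1. In ECKO it was Timp2 (12.7 ± 3.49 FPKM), Timp1 (1.98 ± 1.40), Mmp2 (1.66 ± 0.105), Mmp19 (0.690 ± 0.172) and Mmp9 (0.145 ± 0.0760), and only Timp1 and Mmp2 of these overlapped. Mmp8 and Mmp13 stood at or near 0 in both groups.

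**Figure D1:**
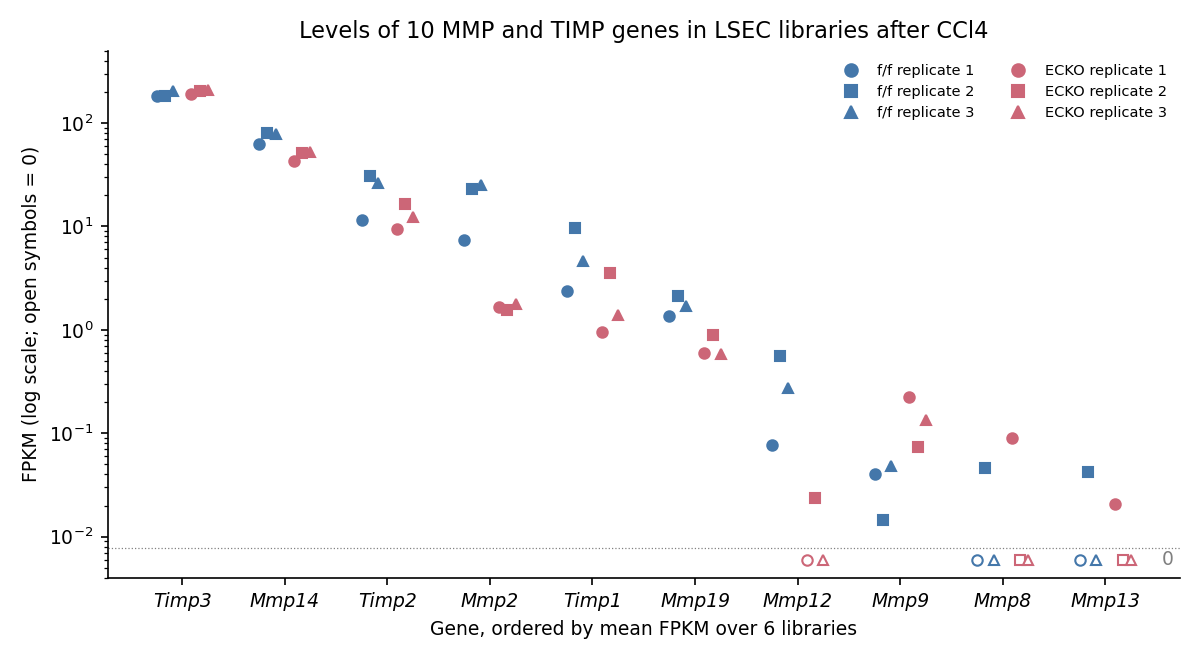
FPKM of the 10 genes in each of the 6 libraries, on a log scale, with libraries at 0 drawn as open symbols at the bottom. Timp3 lies between 181 and 209 FPKM in all libraries, while the 3 ECKO libraries hold Mmp2 at 1.55 to 1.76 FPKM against 7.42 to 25.2 in f/f.

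Genotypes were compared on counts with edgeR's quasi-likelihood test, adjusted by Benjamini-Hochberg over all 13692 genes that passed a filter on low counts. Of the 10 genes 7 passed that filter and 3 did not (Mmp8, Mmp9 and Mmp13). Mmp2 and Mmp19 were lower in the libraries labelled ECKO at an adjusted p under 0.05, and 5 did not pass. Over all tested genes 2.79% were called lower and 1.24% higher, 4.03% in all. None of the 7 was called higher by edgeR, DESeq2 or limma-voom, and 1, Timp3, was higher at an unadjusted p under 0.05. The median log2 fold change of the 7 was -1.09, against 0.01 over all genes tested, and -0.66 over the same 7 without f/f replicate 2. In CPM 4 of the 7 (Mmp2, Mmp12, Mmp14 and Mmp19) were lower in every ECKO library than in any f/f library, and 1 (Timp3) was higher in every one. Over all genes 15.2% and 15.7% were separated in these directions.

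Mmp2 encodes gelatinase A, which cuts denatured collagen and type IV collagen (ENSMUSG00000031740, chromosome 8, 92827328-92853417, plus strand). It was at 23.6, 60.8 and 65.9 CPM in f/f replicates 1, 2 and 3 and at 6.06, 4.71 and 5.73 CPM in ECKO. The groups did not overlap, and f/f replicate 1 lay nearest to ECKO. That library also had the highest mitochondrial share of the f/f libraries (23.5%, against 14.2% and 11.5% in replicates 2 and 3). The part of this share in the Mmp2 values was not tested. Group means were 50.1 ± 23.1 and 5.50 ± 0.706 CPM, and Mmp2 fell 9.11-fold (log2 fold change -3.19, SE 0.40, edgeR adjusted p = 0.0153). Leaving out f/f replicate 1, 2 or 3 kept the call (edgeR adjusted p = 1.42e-04, 0.0361 and 0.0460), and leaving out ECKO replicate 1, 2 or 3 lost it (0.0775, 0.0730 and 0.0702). Over these 6 fits the log2 fold change lay between -3.52 and -2.93. Limma-voom did not call it (adjusted p = 0.0581).

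Stellate cell and fibroblast markers moved in the same libraries. Of 20 such markers 9 fell, none was called higher (0 also at an unadjusted p under 0.05 in edgeR), and the fold changes of all 20 were negative, with a median log2 of -1.11. Their summed level was 1905, 3137 and 3276 CPM in f/f replicates 1, 2 and 3 and 1007, 779 and 1094 CPM in ECKO. The f/f replicates stood in the same order as for Mmp2. In ECKO replicate 2 was lowest in both, but replicate 1 was highest for Mmp2 and replicate 3 for the markers. Single markers differed in f/f: Col3a1 kept that order (237, 704 and 726 CPM) and Tcf21 did not (37.2, 35.5 and 34.9 CPM). In bulk RNA, fewer cells of a type and less RNA per cell cannot be told apart. The part of these markers in the fall of Mmp2 was not tested.

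**Figure D2:**
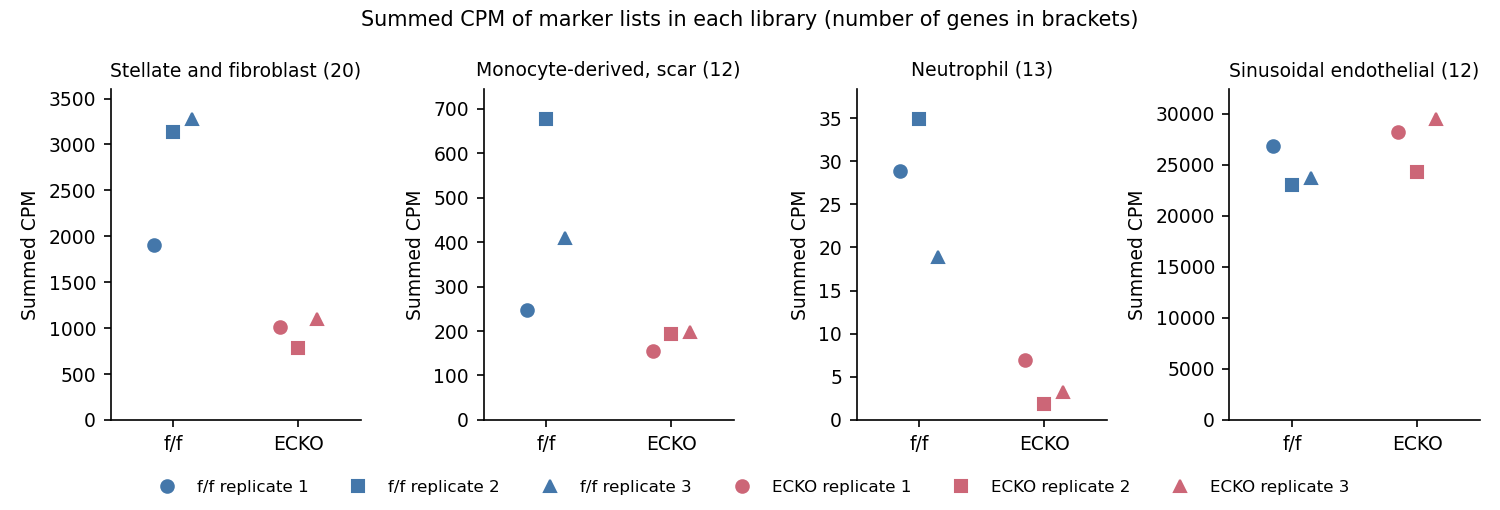
Summed CPM of 4 marker lists in each library, with every axis starting at 0. The stellate, monocyte-derived and neutrophil sums are lower in the 3 ECKO libraries than in any f/f library, while the sinusoidal endothelial sums overlap (1 of those 12 genes was called higher).

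Mmp14 activates pro-MMP-2 at the cell surface and cuts fibrillar collagen (ENSMUSG00000000957, chromosome 14, 54431612-54441265, plus strand). It was at 379.7, 405 and 390.4 CPM in f/f and at 297, 293 and 325 CPM in ECKO. The groups were separate and each was narrow. Means were 392 ± 12.7 and 305 ± 17.5 CPM, and the log2 fold change of -0.36 (SE 0.09) did not pass (edgeR adjusted p = 0.0749; unadjusted p = 0.00507). It did not pass in 14 of 16 alternatives. It passed in DESeq2 (log2 fold change -0.38, adjusted p = 0.00476) and under total count scaling (-0.60, edgeR adjusted p = 0.0370), which moved the median of all genes from 0.01 to -0.22.

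Timp2 inhibits MMPs and serves as the bridge between MMP-14 and pro-MMP-2 (ENSMUSG00000017466, chromosome 11, 118301069-118355740, minus strand). Its level was 49.3, 109.7 and 92.9 CPM in f/f and 46.2, 66.8 and 54.0 CPM in ECKO. The groups overlapped, since f/f replicate 1 lay inside the ECKO range. The log2 fold change was -0.59 (SE 0.29; edgeR adjusted p = 0.275), and it did not pass in 15 of 16 alternatives. It ranged from -0.36 without f/f replicate 2 (edgeR adjusted p = 0.523) to -0.86 without f/f replicate 1, the fit that passed (0.0290).

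Within a library the 3 genes of this activation complex kept different proportions. The FPKM ratio of Mmp2 to Timp2 was 0.646, 0.747 and 0.956 in f/f and 0.177, 0.0950 and 0.143 in ECKO, with no overlap. That of Mmp14 to Mmp2 was 8.46, 3.50 and 3.12 in f/f and 25.8, 32.7 and 29.8 in ECKO. The ratio of Mmp14 to Timp2 overlapped, at 2.62 to 5.46 in f/f and 3.11 to 4.55 in ECKO. These ratios were not tested, since the smallest exact permutation p that 3 libraries a group allow is 0.1.

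Mmp19 encodes a secreted protease of basement membrane and other matrix proteins (ENSMUSG00000025355, chromosome 10, 128790953-128800824, plus strand). It had 117, 127 and 122 counts in f/f (4.89, 6.24 and 5.05 CPM) and 37, 52 and 37 in ECKO (2.46, 3.02 and 2.12 CPM). The groups did not overlap. Means were 5.40 ± 0.736 and 2.54 ± 0.454 CPM, and Mmp19 fell by 1.09 on the log2 scale (SE 0.24; edgeR adjusted p = 0.0491). That call was near the threshold: it held without f/f replicate 1 (edgeR adjusted p = 0.0413), was lost without each other library (0.0730 to 0.145) and was not made by limma-voom (adjusted p = 0.0619). Of its annotated exon bases 22.3% (789 of 3533, GENCODE M21) are shared with Tmem198b on the opposite strand, which had 347 to 731 counts per library and a log2 fold change of 0.09 (edgeR adjusted p = 0.753). The strand setting of the counting is not given, so reads in the shared bases cannot be assigned with certainty.

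Mmp12, the elastase of macrophages (ENSMUSG00000049723), had 19, 97 and 57 counts in f/f and 0, 4 and 0 in ECKO. These are 0.795, 4.77 and 2.36 CPM in f/f, and in ECKO only replicate 2 held any (0.232 CPM). A count of 0 allows up to 3 counts, or 0.172 to 0.200 CPM in the ECKO libraries, for counting error only. The groups were separate, and the fitted log2 fold change of -4.93 (SE 1.08) rests on those 4 counts in ECKO. It did not pass (edgeR adjusted p = 0.0535), nor in 9 of 13 alternatives, among them 5 of the 6 that left out a library (0.1001 to 0.147). It passed without f/f replicate 1 (0.0165), under total count scaling (0.0284) and in DESeq2 (adjusted p = 1.01e-04), and with a replicate term. Without ECKO replicate 2, where the remaining ECKO libraries hold no count, the fitted value was -8.72 and depends on the prior count.

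Of 12 markers of monocyte-derived and scar macrophages, 8 were tested and 1, Cd63, fell (log2 fold change -1.49, edgeR adjusted p = 0.00853). Another 6 had negative fold changes, and the median of the 8 was -1.95. The summed level of all 12 was 247, 677 and 408 CPM in f/f, the order of Mmp12, and 156 to 199 CPM in ECKO. A sum follows its most abundant genes, and whether other cells also made these genes was not tested. Trem2, a receptor of scar macrophages, had 16, 56 and 45 counts in f/f and 4, 0 and 1 in ECKO (edgeR adjusted p = 0.0529). The sums of Kupffer cell and macrophage markers overlapped (58.2 to 117 CPM in f/f, 71.4 to 99.1 in ECKO), and none of 11 tested passed in edgeR. At an unadjusted p under 0.05 in edgeR, 2 were lower (Cd68 and Marco) and 2 higher (Clec4f and Folr2). The part of these markers in the Mmp12 difference was not tested.

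Mmp13, the main interstitial collagenase of rodents (ENSMUSG00000050578), was barely detected, with 0, 2 and 0 counts in f/f and 1, 0 and 0 in ECKO. Mmp8, neutrophil collagenase (ENSMUSG00000005800), had 0, 2 and 0 counts in f/f and 4, 0 and 0 in ECKO. Both lay within or next to the 3 counts that a 0 allows, so a difference between genotypes was not detectable at this depth.

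Mmp9, gelatinase B (ENSMUSG00000017737, chromosome 2, 164940780-164955850, plus strand), had 4, 1 and 4 counts in f/f and 16, 5 and 10 in ECKO. In CPM these were 0.167, 0.0491 and 0.166 against 1.07, 0.291 and 0.573. It was the sole MMP of the 7 whose values were higher in every ECKO library than in any f/f library. Over all tested genes 15.7% were separated in that direction. The 5 counts of ECKO replicate 2 lay next to the 4 of f/f replicates 1 and 3, so the separation is within counting error. Too low for the filter, it gave an exact permutation p of 0.1 (two-sided), the smallest that 3 against 3 can give, and an edgeR adjusted p of 0.132 when every gene with a count was tested. The sum of the neutrophil markers was 28.8, 34.9 and 18.9 CPM in f/f and 6.92, 1.86 and 3.27 in ECKO. Of 13 listed 6 were tested, and Mpo and Prtn3, enzymes of neutrophil granules, fell (log2 fold changes -3.29 and -3.26; edgeR adjusted p = 0.0374 and 0.0256). Ly6g, a defining neutrophil marker, was at 0 in all 6 libraries. The relation of these markers to the Mmp9 values was not tested.

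**Figure D3:**
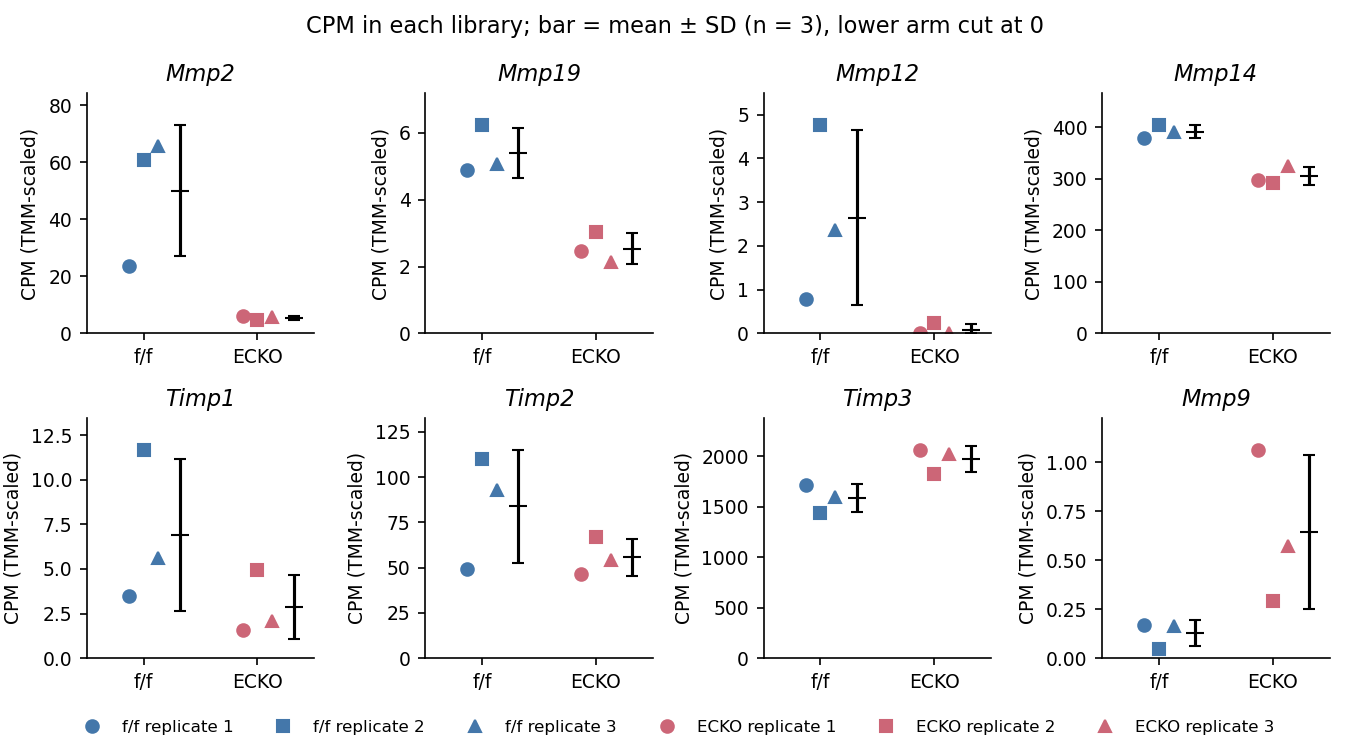
CPM of 8 of the genes in each library, with the mean and SD (n = 3) beside the points and axes from 0. Mmp2, Mmp19, Mmp12 and Mmp14 are lower in every ECKO library than in any f/f library, Timp1 and Timp2 overlap, and Timp3 and Mmp9 are higher.

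Timp1 encodes the inducible inhibitor that rises in fibrotic liver (ENSMUSG00000001131, chromosome X, 20870166-20874735, plus strand). It was at 3.47, 11.7 and 5.59 CPM in f/f and 1.60, 4.94 and 2.06 CPM in ECKO. Replicate 2 was the highest of each group, and ECKO replicate 2 lay above f/f replicate 1, so the groups overlapped. The log2 fold change of -1.26 (SE 0.57) did not pass (edgeR adjusted p = 0.236). The log2 fold change ranged from -1.89 without ECKO replicate 2 to -0.66 without f/f replicate 2, and passed in neither fit. Timp1 lies inside Syn1, on the opposite strand, shares no exon base with it, and Syn1 had 0 to 4 counts per library.

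Mesothelial markers, 8 genes of the liver's outer lining, were also highest in replicate 2 of each group. Their sums were 55.3, 113 and 78.5 CPM in f/f and 37.7, 75.8 and 30.9 CPM in ECKO. Of the 7 tested Lrrn4 and Wt1 fell and 5 did not pass, with a median log2 fold change of -1.30. Their part in the spread of Timp1 was not tested.

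Timp3, which also inhibits ADAM proteases (ENSMUSG00000020044, chromosome 10, 86300372-86349506, plus strand), went the other way in CPM. It was at 1714, 1439 and 1593 CPM in f/f and 2065, 1825 and 2025 CPM in ECKO, without overlap. The log2 fold change of 0.32 (SE 0.11) did not pass (edgeR adjusted p = 0.150). On FPKM, where library composition is not corrected, f/f held 181, 184 and 204 and ECKO 190.4, 202 and 209. Those values overlapped, and scaling by total counts left a log2 fold change of 0.08 (edgeR adjusted p = 0.806). Timp3 shares 1733 of its 8144 exon bases with Syn3 on the opposite strand, which had 3 to 19 counts per library against 29290 to 40986 for Timp3.

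Added by class, the 7 MMP genes held 71.7, 107 and 106 FPKM in f/f and 45.4, 53.4 and 55.1 in ECKO, which did not overlap. The 3 TIMP genes held 195 to 235 FPKM in f/f and 201 to 223 in ECKO, which did. FPKM are not corrected for library composition. In CPM, which are, Timp3 was higher in every ECKO library than in any f/f library, while Timp1 and Timp2 overlapped. The ratio of TIMP to MMP FPKM was 2.72, 2.10 and 2.23 in f/f and 4.42, 4.17 and 4.05 in ECKO (2.35 ± 0.326 and 4.21 ± 0.188). Being a ratio within a library, it does not change with the scaling of that library, and it describes transcripts only. Timp3 made up 55.5% to 67.9% of the FPKM of the 10 genes in f/f and 73.4% to 77.3% in ECKO. Of the MMP part, Mmp14 made up 74.2% to 87.6% in f/f and 94.3% to 95.5% in ECKO, and Mmp2 10.4% to 23.8% and 2.91% to 3.66%.

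**Figure D4:**
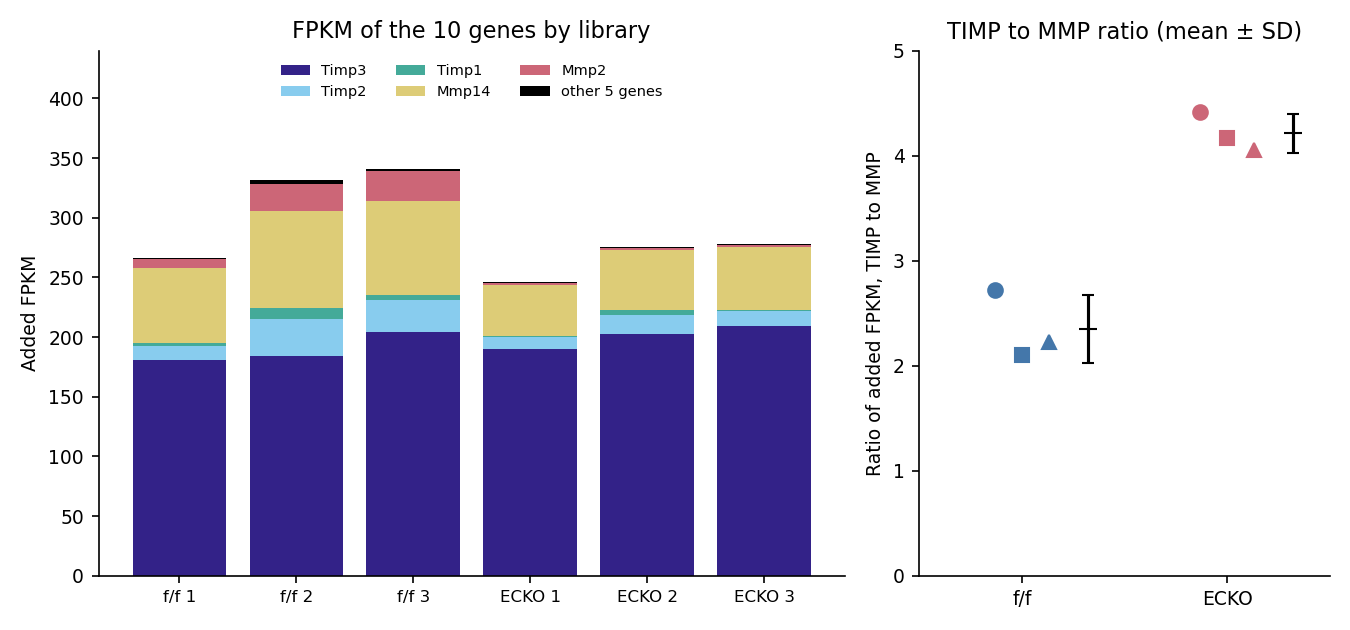
Left, FPKM of the 10 genes stacked for each library. Right, the ratio of added TIMP to added MMP FPKM in each library (circle, square and triangle for replicates 1, 2 and 3) with mean and SD (n = 3), which lies between 2.10 and 2.72 in f/f and between 4.05 and 4.42 in ECKO.

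Another 17 MMP and TIMP genes of the mouse were listed. Mmp1a, Mmp1b, Mmp10, Mmp20, Mmp21 and Mmp24 had 0 counts in all 6 libraries, and Mmp3, Mmp16, Mmp27 and Timp4 had at most 10 in any. Of the 7 tested none passed in either direction in edgeR or limma-voom; 3 were lower and 0 higher at an unadjusted p under 0.05, and DESeq2 called 2 lower, Mmp7 and Mmp23. Their median log2 fold change was -0.54, and -0.18 over the same 7 without f/f replicate 2. Mmp28, epilysin, at 4.02 ± 1.98 FPKM in f/f and 5.76 ± 3.35 in ECKO, went from 21.5 ± 9.14 to 36.6 ± 18.4 CPM (edgeR adjusted p = 0.341). Mmp7, matrilysin, a protease of epithelia, at 7.59 ± 5.13 and 1.41 ± 0.545 FPKM, went from 7.16 ± 4.52 to 1.61 ± 0.494 CPM (log2 difference -2.14, SE 0.56, edgeR adjusted p = 0.0792). Mmp15, a membrane-type protease like Mmp14, went from 9.52 ± 4.10 to 6.53 ± 1.20 CPM (edgeR adjusted p = 0.326). Mmp23 had a log2 fold change of -1.47 (SE 0.39; edgeR adjusted p = 0.0764).

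Of 22 genes that activate, inhibit, anchor or clear MMPs, 3 fell and 19 did not pass. None was called higher by edgeR (2 at an unadjusted p under 0.05) or limma-voom, and DESeq2 called Itgb3 higher. The median log2 fold change was -0.22; it was -0.13 without f/f replicate 3 and -0.47 without ECKO replicate 2 or under total count scaling. Lrp1, the endocytic receptor that removes MMP-2, MMP-9 and MMP-13 from the cell surface, was at 113, 131 and 127 CPM in f/f and 48.3, 41.4 and 53.8 CPM in ECKO. It fell by 1.37 on the log2 scale (SE 0.12; edgeR adjusted p = 0.00853) and passed without each library in turn. Thbs2, thrombospondin 2, which carries MMP-2 to that receptor, had means of 29.9 ± 3.96 and 15.4 ± 0.671 CPM and fell by 0.96 on the log2 scale (SE 0.13; edgeR adjusted p = 0.0141). Cd44, a hyaluronan receptor that docks MMP-9, fell from 8.49 ± 2.95 to 2.09 ± 0.452 CPM (-2.02, SE 0.31, edgeR adjusted p = 0.0212).

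Lrp1 and Thbs2 are also made by stellate cells and fibroblasts, 9 of whose 20 markers fell in the same libraries; their part in these falls was not tested. Thbs2 missed the threshold without f/f replicate 3 and ECKO replicates 1 and 3, and Cd44 without f/f replicate 3 and each ECKO replicate. The 4 genes with the highest FPKM among those that did not pass were Ctsl, Bsg, Plau and Itgb3. Ctsl, a lysosomal protease, was at 1476 ± 93.2 CPM in f/f and 1681 ± 148 in ECKO, and Bsg, the MMP inducer basigin, at 172 ± 29.6 and 199.9 ± 37.8. The small differences of both turned from positive to negative on FPKM and under total count scaling. Plau, the urokinase that generates plasmin, was at 42.5 ± 4.78 and 55.2 ± 3.94 CPM (edgeR adjusted p = 0.106), and Itgb3, the integrin subunit beta 3, at 88.8 ± 8.99 and 122 ± 8.50 CPM (edgeR adjusted p = 0.0609).

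**Figure D5:**
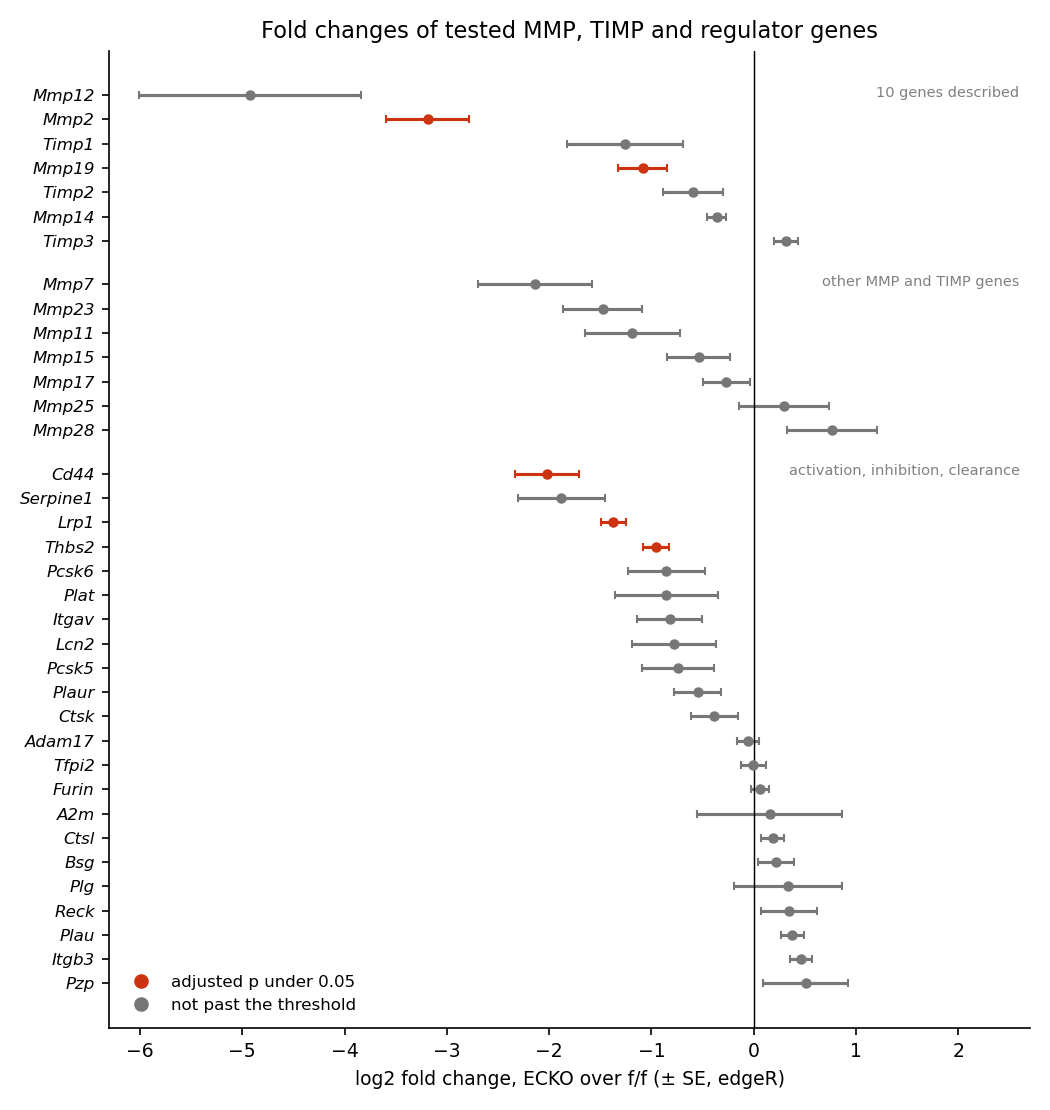
Log2 fold changes of ECKO over f/f with SE (edgeR) for the 7 tested genes described here, 7 other MMP genes and 22 regulators. Red points passed an adjusted p of 0.05: Mmp2 and Mmp19 among the first, none among the second, and Cd44, Lrp1 and Thbs2 among the third.

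The genes whose pattern over the 6 libraries lay closest to each tested gene were found by Pearson's r of log2(CPM + 1), among tested genes averaging at least 5 CPM. With 2 genotypes among the libraries, r can follow the group difference, the spread within groups or both. It is given as a description. Mmp2 lay closest to Fads2, a fatty acid desaturase (r = 0.997), Fbn1, the microfibril protein fibrillin 1 (0.996), and Adamts2, a procollagen protease (0.996). Mmp14 lay closest to Krt8, Wdr6 and Hs2st1 (0.990 to 0.997), Mmp19 to Yaf2, Adgrd1 and Peg10 (0.986 to 0.995), and Mmp12 to Alcam, Sestd1 and Sema5a (0.997 to 0.999). Among the inhibitors, Timp1 lay closest to Clstn1, Eid1 and Ezr (0.977 to 0.983), Timp2 to Plcd3, Ltbp1 and Lox (0.984 to 0.992), and Timp3 to Rps6kb2, Endov and Arhgap31 (0.991 to 0.995). The number of genes with r above 0.95 was 141 for Mmp2, 110 for Mmp14 and 39 each for Timp1 and Timp2.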

How the data were processed

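RNA of LSECs from 3 f/f and 3 ECKO libraries was sequenced after CCl4. Per the file headers, the authors deposited raw counts and FPKM, with 1 column of each per library. All were used (0 sample columns set aside). The length implied by count, FPKM and library total was the same in all libraries to within a relative difference of 4.53e-06 (7566 genes with over 200 counts in every library). The submitters' processing notes name HISAT2 2.0.4 and StringTie 1.3.0, with mm10 and GRCm38.p4 as builds. Which program counted, on what annotation, and whether strand was used are not given here.

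Counts were fitted in R 4.3.3 with edgeR 4.0.16 (filterByExpr with minimum count 10 and minimum total 15, TMM, robust quasi-likelihood F-test, genotype as the only term, two-sided, Benjamini-Hochberg over 13692 genes, threshold 0.05). SE came from the fold change and F (log2 size over root F). CPM are counts over TMM-scaled library size. Alternatives used other scalings and filters, DESeq2 1.42.0, limma-voom (limma 3.58.1), limma on log2(FPKM + 0.1) and log2(FPKM + 1) with FPKM of at least 0.5 in 3 libraries, a replicate term, and each library left out. With no molecular identifiers described, floors cover counting error only.

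The members and lists were chosen with earlier results of these data known. Named genes were the 10 members, the genes of 2 fixed lists (other MMP and TIMP genes; activation, inhibition and clearance) that passed or, of the rest, the 4 with the highest FPKM, the 3 genes most correlated with each tested member, and markers. Marker genes named were chosen after their values were seen where they are not among the highest of their list or at 0. Markers of hepatocytes (10 genes, 0 called, 814 to 1637 CPM in sum) and of T, NK and B cells (9 genes, 2 called lower, 3.60 to 19.6 CPM) were listed too.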

Additional observations from a re-analysis of the deposited data

How the results depend on the processing

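Of the 10 genes, 2 were called lower under DESeq2 size factors, TMM without mitochondrial genes, both other filters and both FPKM fits. The count was 4 under total count scaling and in DESeq2 (Mmp2, Mmp12, Mmp14 and Mmp19), 0 in limma-voom, and 0 to 4 when each library was left out: 4 without f/f replicate 1 (Mmp2, Mmp12, Mmp19 and Timp2), 1 without f/f replicate 2 or 3 (Mmp2), and 0 without any 1 ECKO replicate. None was called higher under any of these settings, and no fold change of the 7 tested genes changed sign. CPM of at least 1 and the FPKM fits left out Mmp12.

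Over all genes 382 were lower and 170 higher. Total count scaling gave 1209 and 63 and DESeq2 1038 and 470. Limma-voom called 191 lower, and the FPKM fits called 43 and 40 higher. Single libraries left out gave 21 to 766 lower and 14 to 246 higher.

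Of the other MMP and TIMP genes, 2 (Mmp7 and Mmp23) were called lower under total count scaling, in DESeq2 and with the replicate block, and 0 to 2 with single libraries left out. Of the regulators, 5 were lower under total count scaling and 1 (Itgb3) was higher in DESeq2 and without a filter on low counts; single libraries left out gave 1 to 4 lower and 0 to 1 higher. The log2 fold changes of Ctsl and Bsg turned negative with total counts (-0.0511 and -0.0145) and in the FPKM fits with pseudocount 0.1 (-0.0509 and -0.021) and 1 (-0.0508 and -0.0204). The cause of these changes was not tested, except that leaving out a library leaves fewer samples.

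The labels do not say that the replicate numbers pair samples, so the main fit used no pairing. Same-numbered libraries correlated at 0.0946, 0.152 and -0.0520 in their deviations from the group means. With 3 libraries a group these correlations cannot decide whether the numbers pair samples. With the replicate block 3 members were lower (Mmp2, Mmp12 and Timp1), and 285 genes were lower and 131 higher.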
